A study of Mus musculus with 6 samples.

Results

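The genes described here are 10 members of the Toll-like receptor pathway: the receptors Tlr1, Tlr2, Tlr3, Tlr4, Tlr6, Tlr7 and Tlr9, the adaptor Myd88, and the co-receptors Cd14 and Ly96. They were chosen by symbol, as the transcript clusters that the array's annotation names with exactly 1 of these symbols. Such a cluster pools the probes the array assigns to the transcripts of a locus. Each member had 1 such cluster, so all 10 were found among 30142 genes named this way on the array. Hematopoietic stem cells (HSCs), the bone marrow cells that renew the blood system, came from Cdk19 knockout mice (CDK19-/-, 3 arrays) and from wild-type mice (3 arrays), all aged 6 to 8 weeks. The CDK19 protein is a cyclin-dependent kinase that joins Mediator, the complex coupling transcription factors to RNA polymerase II. Marrow from the leg and hip bones was depleted of cells with lineage markers, and HSCs were stained and sorted by flow cytometry, with no treatment beyond the genotype. The labels do not give strain, sex, the gate's markers, the deleted part of Cdk19, whether the deletion is confined to blood cells, or how many animals each array holds.

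Toll-like receptors recognise microbial molecules and the products of damaged cells. TLR2, paired with TLR1 or TLR6, binds lipoproteins at the cell surface, and TLR4 binds lipopolysaccharide there with its partner MD-2, the product of Ly96, after CD14 has delivered the ligand. TLR3, TLR7 and TLR9 sit in endosomes and bind double-stranded RNA, single-stranded RNA and unmethylated CpG DNA. Every member of the family but TLR3 can signal through the adaptor MyD88 to NF-kB, and TLR3 and TLR4 also use the adaptor TRIF. Stem and progenitor cells of mouse marrow are known to carry working Toll-like receptors, whose ligands can drive them into cycle and towards myeloid cells.

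In the knockout HSCs the pathway's members did not move as a block. Cd14 and Tlr9 rose, Tlr7 and Tlr4 fell, and Tlr2, Tlr3, Tlr6, Myd88 and Ly96 did not pass the test. Tlr1 was too dim to test. The test was limma's moderated test on the deposited log2 values, adjusted by Benjamini-Hochberg over 39543 clusters, with a call at an adjusted p under 0.05. Of the 9 members tested, 2 rose and 2 fell. Over all clusters tested 2.96% were called higher and 4.84% lower, 7.80% in all, and over the brightest clusters of protein-coding genes 4.70% and 5.93%, 10.6% in all. The members' median log2 change was 0.05, against 0.00 over all clusters tested, and its sign and size were not stable. Removing 1 array gave -0.03 (without knockout array 3) to 0.16 (without knockout array 2), and leaving out the dimmest 60% of clusters gave 0.22. In bulk samples of sorted cells, fewer cells that express a gene and less RNA per cell cannot be told apart.

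Cdk19 itself averaged 11.47 ± 0.05 (SD, n = 3) in knockout arrays and 12.44 ± 0.06 (SD, n = 3) in wild-type arrays, so each knockout array was below each wild-type array. The stem cell factor receptor gene Kit, at 14.06 ± 0.03 in knockout and 14.53 ± 0.01 in wild type (SD, n = 3 each), and Cd34, at 15.82 ± 0.02 and 15.97 ± 0.06, were bright on all 6 arrays. Of 12 markers of HSCs and early progenitors tested, 4 fell in the knockout (Kit, Flt3, Meis1 and Hlf) and 0 rose. Over the brightest clusters of protein-coding genes 5.93% were called lower and 4.70% higher. Genes of this list differed widely in level: Slamf1 averaged 5.65 in knockout and 5.78 in wild type, and Procr 7.37 and 7.29. Cd48 averaged 11.33 and 11.30, and Flt3 13.62 and 14.51. The purity of the sorted cells was not tested. Correlations across clusters were 0.997 to 0.998 between arrays of 1 genotype and 0.995 to 0.996 between genotypes. No array stood apart from the others of its group.

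The RefSeq promoter table (build GRCm38.p6) held a window of 250 bases before to 50 after the start for 6 of the 10 members. Those of Tlr9 and Tlr2 are shown because these are the receptors that rose, or came nearest to a call among those that did not pass. Capitals mark matches on either strand to motifs of factors that act in this pathway: TGANTCA (AP-1), TTGCNNAA (C/EBP), AGAGGAAG (PU.1), the core of the interferon response element (GAAA, any 2 bases, GAAA), a kB-type element of the kind NF-kB binds (GGG, any 2 bases, TTTCC) and, chosen after the Tlr2 window was read, the palindromic kB-type element capitalised there.
Tlr9 promoter, chr9:106222348-106222647, plus strand: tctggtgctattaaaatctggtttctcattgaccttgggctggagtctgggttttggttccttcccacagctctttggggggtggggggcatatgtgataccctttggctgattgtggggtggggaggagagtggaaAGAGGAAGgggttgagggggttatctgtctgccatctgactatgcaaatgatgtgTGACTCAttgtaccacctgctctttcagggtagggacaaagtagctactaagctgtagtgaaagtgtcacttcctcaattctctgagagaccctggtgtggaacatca
Tlr2 promoter, chr3:83841559-83841858, minus strand: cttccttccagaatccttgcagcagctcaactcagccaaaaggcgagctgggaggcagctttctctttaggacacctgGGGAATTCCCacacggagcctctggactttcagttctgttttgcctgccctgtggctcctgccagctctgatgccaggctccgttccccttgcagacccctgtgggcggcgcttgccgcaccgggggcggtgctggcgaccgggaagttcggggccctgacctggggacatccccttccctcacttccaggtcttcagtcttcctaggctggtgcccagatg

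The Tlr9 window held the PU.1 letters from position -113 and the AP-1 letters from position -58 relative to the start. Over all 32851 windows of this length, 4.55% held the PU.1 letters and 7.81% those of AP-1. The Tlr2 window held the palindromic kB-type letters from position -172, which 0.0396% of windows held, and none of the other 5 motifs. Since these letters were chosen from that window, their match there was fixed in advance. Their share cannot be read like those of the motifs set beforehand. In the remaining windows, that of Myd88 had the interferon response element core from position -40 (3.44% of windows). The Tlr3 window had the C/EBP letters from position -95 (10.8% of windows) and the kB-type element from position -211 (1.63% of windows). Of 2 windows of Tlr6, 1 had the C/EBP letters from position -89 and overlapping interferon response element cores from positions -116 and -110, and the other had no match. Neither window of Tlr1 held any of these motifs. A match shows only that the letters are present in the window. Cd14, Tlr4, Tlr7 and Ly96 are named without a promoter sequence.

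**Figure D1:**
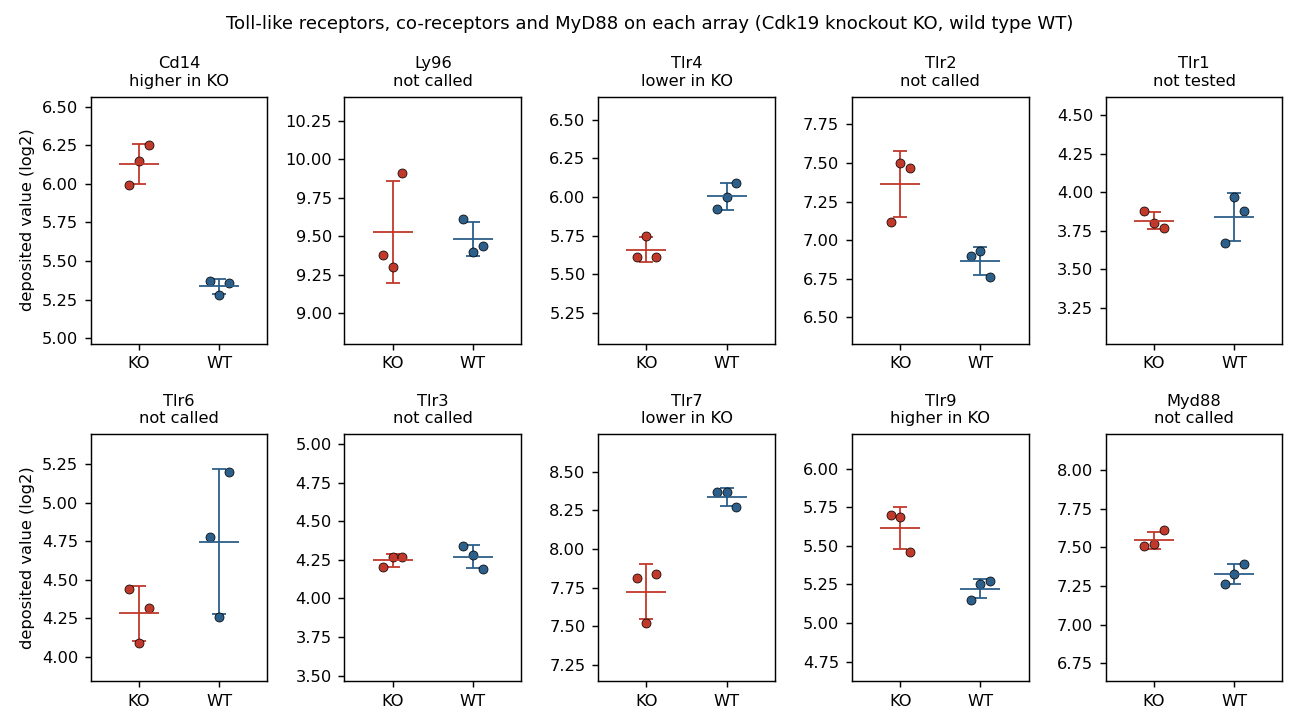
Deposited log2 value of each member on each array, with knockout (KO) left of wild type (WT). Points are arrays, the wide bar is the mean of 3 arrays and the error bar its SD, and each panel spans the same range of log2 units around its own centre. The knockout points of Cd14, Tlr9, Tlr2 and Myd88 lie above all wild-type points, those of Tlr7 and Tlr4 below, and those of Ly96, Tlr1, Tlr6 and Tlr3 overlap them.

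The lipopolysaccharide receptor is built from 3 of the members, and the calls on them differed: Cd14 rose, Tlr4 fell and Ly96 did not pass. Cd14, which hands lipopolysaccharide to the receptor, had log2 values of 5.99, 6.15 and 6.25 in knockout arrays 1 to 3, against 5.37, 5.28 and 5.36 in wild-type arrays 1 to 3. The lowest knockout array was well above the highest wild-type array. The mean was 6.13 ± 0.13 in knockout and 5.34 ± 0.05 in wild type (SD, n = 3 each). That is a log2 change of 0.79 (SE 0.08; 95% interval 0.59 to 0.99), or 1.73-fold higher in the knockout, with a limma adjusted p of 0.0034. Cd14 was the member with the largest change, and the call held under all 14 alternatives run, with adjusted p from 0.0027 to 0.022.

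Tlr4, the receptor chain, went the other way. Its values were 5.61, 5.75 and 5.61 in the knockout, against 5.92, 6.00 and 6.09 in wild type, and the groups did not overlap. The log2 change was -0.35 (SE 0.08; 95% interval -0.53 to -0.16; limma adjusted p = 0.043). This call was close to the threshold. All 6 fits with an array removed lost it: the limma adjusted p was 0.12, 0.054 and 0.11 without knockout array 1, 2 or 3 and 0.071, 0.13 and 0.15 without wild-type array 1, 2 or 3.

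Ly96, whose product MD-2 holds the lipid part of lipopolysaccharide for TLR4, had values of 9.38, 9.30 and 9.91 in the knockout, against 9.61, 9.40 and 9.44 in wild type. Knockout array 3 was the highest of the 6, and the other knockout arrays were the lowest. The log2 change of 0.05 had a 95% interval from -0.35 to 0.44 (limma adjusted p = 0.92), and without knockout array 3 it was -0.14. These arrays do not show whether Ly96 differed by less than that interval.

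Among the receptors of bacterial lipoproteins, Tlr2 was the 1 with separated groups. Its values were 7.12, 7.50 and 7.47 in the knockout, against 6.90, 6.93 and 6.76 in wild type. Every knockout array was above every wild-type array, with knockout array 1 the lowest of the 3. The log2 change was 0.50 (SE 0.12; 95% interval 0.22 to 0.78), and the limma adjusted p of 0.051 did not pass. Without knockout array 1 the change was 0.62 and passed (adjusted p = 0.018), as it did when all arrays were set to the same median (0.042). Leaving out any other array gave adjusted p-values up to 0.17.

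Both partners of TLR2 were dim. Tlr6 had values of 4.44, 4.09 and 4.32 in the knockout, against 4.78, 4.26 and 5.20 in wild type. The wild-type arrays spread widely (SD 0.47), and wild-type array 2 lay within the knockout range. Its log2 change of -0.46 had a 95% interval from -1.02 to 0.09 and did not pass (limma adjusted p = 0.32). Tlr1, at 3.88, 3.80 and 3.77 in the knockout and 3.67, 3.97 and 3.88 in wild type, was below the limit of 4.09 under which the dimmest 40% of clusters were left out. No detection call was used here, so whether either transcript was present in these cells was not tested. Array medians lay between 4.40 and 4.48, close to the levels of Tlr6. The genes of Tlr1 and Tlr6 are neighbours and code for similar proteins. The sequences of the array's probes were not used here, so signal shared between these clusters cannot be told apart.

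The endosomal receptors of nucleic acids split. Tlr7, which senses single-stranded RNA, had values of 7.81, 7.52 and 7.84 in the knockout, against 8.37, 8.37 and 8.27 in wild type. The groups were well separated, and knockout array 2 was the lowest. The mean was 7.72 ± 0.18 in knockout and 8.34 ± 0.06 in wild type (SD, n = 3 each). The log2 change of -0.61 (SE 0.10; 95% interval -0.85 to -0.38), 1.53-fold lower in the knockout, had a limma adjusted p of 0.014. Removing wild-type array 1, 2 or 3 ended the call, with an adjusted p of 0.059, 0.066 and 0.052. Removing any of the knockout arrays did not, with adjusted p from 0.018 to 0.035.

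Tlr7 lies on the X chromosome, and the labels do not give the sex of the mice. Xist, the RNA of the inactive X, averaged 4.25 ± 0.15 in knockout and 4.14 ± 0.06 in wild type, and the Y-linked Eif2s3y 8.76 ± 0.08 and 8.90 ± 0.07 (SD, n = 3 each). Neither passed the test. Of the other Y-linked genes measured, Uty had a log2 change of -0.36 (limma adjusted p = 0.016), and Kdm5d one of -0.23 that did not pass (adjusted p = 0.11). Knockout and wild-type arrays did not overlap for Uty and Kdm5d and overlapped for Eif2s3y. Uty averaged 8.32 in knockout and 8.68 in wild type and Kdm5d 7.53 and 7.76, so all these Y-linked genes were bright in both genotypes. The sex-linked genes were chosen after the value of Tlr7 was seen, and a part of sex in its change was not tested. On the chromosome, Tlr7 lies between Tlr8, which was below the limit, and Prps2, which differed by 0.13 and did not pass (limma adjusted p = 0.30).

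Tlr9, the sensor of CpG DNA, moved opposite to Tlr7. Its values were 5.70, 5.69 and 5.46 in the knockout, against 5.15, 5.25 and 5.27 in wild type. Again the groups did not overlap, with knockout array 3 nearest to wild type. The log2 change was 0.39 (SE 0.09; 95% interval 0.18 to 0.60; limma adjusted p = 0.044). The call held without knockout array 3 (adjusted p = 0.025) and ended without knockout array 1 (0.12) or 2 (0.12) and without wild-type array 1 (0.13), 2 (0.12) or 3 (0.12). Setting all arrays to the same median ended it as well (0.073). Its chromosomal neighbours Twf2 and Alas1 had log2 changes of -0.12 and -0.19 that did not pass (limma adjusted p = 0.36 and 0.17).

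Tlr3, the sensor of double-stranded RNA, had values of 4.20, 4.27 and 4.27 in the knockout, against 4.34, 4.28 and 4.19 in wild type. The groups overlapped, and all 6 values were just above or near the limit for testing. The log2 change was -0.02 with a 95% interval from -0.18 to 0.14 (limma adjusted p = 0.89).

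Myd88, the adaptor that most of these receptors share, had values of 7.51, 7.52 and 7.61 in the knockout, against 7.26, 7.33 and 7.39 in wild type. The knockout arrays were all above the wild-type arrays, but by little. Its log2 change of 0.22 (SE 0.07; 95% interval 0.06 to 0.38) did not pass (limma adjusted p = 0.11), and it did not pass under any of the 14 alternatives (lowest adjusted p 0.058). Groups did not overlap for 6 of the 9 members tested, and 26.5% of all clusters tested and 38.1% of protein-coding genes had groups that did not overlap.

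**Figure D2:**
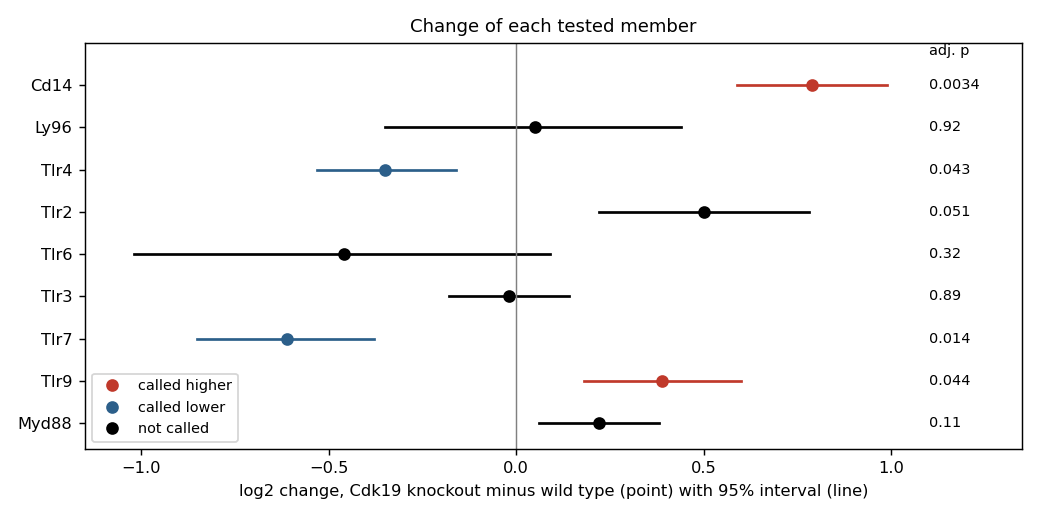
Log2 change of each tested member, knockout minus wild type (points), with its 95% interval (lines) and limma adjusted p. Red marks members called higher in the knockout (Cd14 at 0.79, Tlr9 at 0.39), blue those called lower (Tlr7 at -0.61, Tlr4 at -0.35), and black those not called.

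How closely the calls depend on single arrays differed between members. The plot of adjusted p by setting shows Cd14 left of the threshold throughout, Tlr7 crossing it when a wild-type array is left out or the replicate number is fitted, and Tlr4, Tlr9 and Tlr2 scattered around it.

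**Figure D3:**
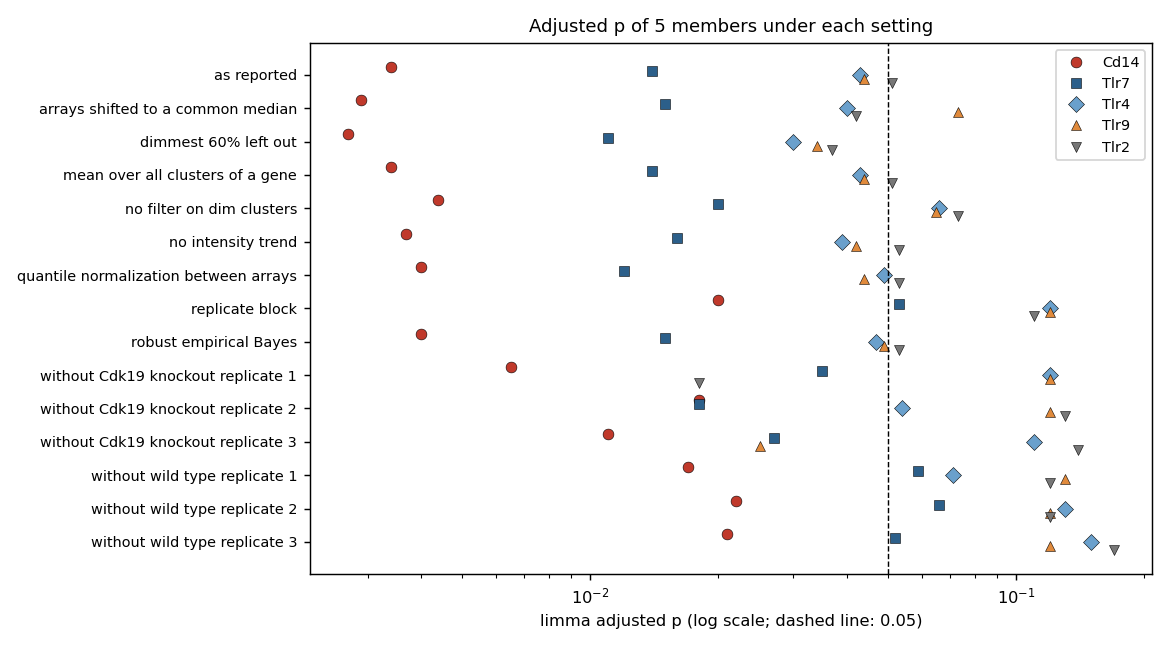
Limma adjusted p (horizontal, log scale) of 5 members under the reported setting and 14 alternatives (vertical), with the threshold of 0.05 dashed. Cd14 stays between 0.0027 and 0.022, while Tlr7 reaches 0.066, Tlr9 0.13, Tlr4 0.15 and Tlr2 0.17.

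The rest of the pathway was described with 9 lists by role, holding 126 genes besides the members. Of 118 with a cluster of their own, 108 were bright enough to test. In the knockout 34 rose and 9 fell, and 65 did not pass. The median log2 change of these genes was 0.08. Over the brightest clusters of protein-coding genes it was -0.01, with 4.70% called higher and 5.93% lower. The counts by role below are read beside these shares. The lists were chosen with earlier results of these data known. The counts are therefore a description, and an excess over these shares was not tested.

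The other receptors of the family gave no call by limma. Tlr5, Tlr8 and Tlr13 were below the limit, and the 2 tested did not pass. Tlr12 averaged 5.30 ± 0.07 in knockout and 5.55 ± 0.09 in wild type (SD, n = 3 each), a log2 change of -0.25 (limma adjusted p = 0.11), and Tlr11 differed by 0.04. In the IL-1 receptor family, most of whose members share the TIR signalling domain, 1 of 6 genes rose, 0 fell and 5 did not pass. The riser was Il1r2, which encodes a decoy that lacks this domain and binds interleukin-1 without signalling. It was at 11.02 ± 0.03 in knockout and 9.27 ± 0.07 in wild type (SD, n = 3 each). Its log2 change was 1.75 (SE 0.06; limma adjusted p = 7.5e-05). Il1rl2 differed by -0.16 and did not pass (adjusted p = 0.18).

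Of 12 partner and trafficking genes tested, 2 rose and 0 fell. Hsp90b1, encoding the chaperone gp96 that folds most Toll-like receptors, averaged 13.50 ± 0.03 in knockout and 13.05 ± 0.01 in wild type (SD, n = 3 each; log2 change 0.45, limma adjusted p = 0.0021). Lbp, whose product carries lipopolysaccharide to CD14, changed by 0.35 (limma adjusted p = 0.035). The Lbp call was lost without knockout array 1 (0.096) or 3 (0.098) or wild-type array 1 (0.11), 2 (0.13) or 3 (0.076), which leaves a count of 1. Unc93b1, which escorts the nucleic acid receptors to endosomes, differed by -0.20 and did not pass (adjusted p = 0.14). Its level was 9.34 ± 0.10 in knockout and 9.54 ± 0.01 in wild type (SD, n = 3 each).

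Among 4 other adaptors tested, 1 rose and 0 fell. Pik3ap1, encoding the adaptor BCAP, which links the receptors to phosphoinositide 3-kinase, had a log2 change of 0.42 (SE 0.06; limma adjusted p = 0.0076). Ticam2, encoding the TRAM adaptor that brings TRIF to TLR4, was at 6.55, 6.16 and 6.46 in the knockout, against 6.85, 6.76 and 6.90 in wild type. These groups did not overlap, and the log2 change of -0.45 did not pass (limma adjusted p = 0.063).

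Downstream of MyD88, 3 of 18 kinase and ubiquitin ligase genes rose, 1 fell and 14 did not pass (median log2 change 0.03). The gene of the kinase IRAK2, which sustains MyD88 signalling, was at 7.09, 6.86 and 7.04 in the knockout, against 6.12, 6.18 and 6.27 in wild type. Irak2 values in every knockout array were far above those of wild type, with a log2 change of 0.81 (SE 0.08; limma adjusted p = 0.0032). Map3k8, a kinase freed when NF-kB1 p105 is degraded, rose by 0.69 (adjusted p = 0.0051). Traf6, the ubiquitin ligase that IRAK kinases recruit, had a log2 change of 0.29 (adjusted p = 0.030) and Tab1, a partner of the kinase TAK1, one of -0.35 (adjusted p = 0.039). Neither of these calls held with an array left out: the adjusted p of Traf6 was 0.068, 0.054 and 0.075 without knockout array 1, 2 or 3 and 0.11, 0.096 and 0.12 without wild-type array 1, 2 or 3, and that of Tab1 was 0.068, 0.088 and 0.079 without knockout arrays and 0.071, 0.13 and 0.15 without wild-type arrays in the same order. Without these genes 2 were called higher and 0 lower.

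Of the transcription factors at the end of the pathway, those of the NF-kB family rose. Among 12 tested there were 6 rises and 2 falls, and 4 did not pass. Of the NF-kB family, Nfkb2 (log2 change 0.84), Relb (0.61), Rel (0.50) and Rela (0.39) all rose, and Nfkb1 had no cluster of its own. Cebpb, a factor of inflammatory and myeloid genes, rose by 1.06 (SE 0.13; limma adjusted p = 0.0059). Irf3, the factor that TRIF activates, was at 6.50, 6.52 and 6.69 in the knockout, against 7.09, 7.00 and 7.13 in wild type. Its log2 change of -0.50 (limma adjusted p = 0.013) lost the call without wild-type array 1 (0.053) or 3 (0.062). Irf8, a factor of monocyte and dendritic cell development, fell by 0.40 (adjusted p = 0.019), a call that ended when wild-type array 1 (0.053), 2 (0.081) or 3 (0.086) was removed. Hence 0 or 1 of these factors were called lower without a wild-type array. Irf1 rose by 0.32 in its brightest cluster (adjusted p = 0.035) but by 0.09 as the mean of its 2 clusters, which did not pass (adjusted p = 0.73). Its call held without knockout array 2 (adjusted p = 0.041) and ended without any other array (0.060 to 0.13). Irf5 and Irf7 did not pass.

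Of 23 genes listed as negative regulators, not all of which only restrain the pathway, 9 rose, 2 fell and 12 did not pass (median log2 change 0.10). With 1 array left out 7 to 9 were called higher, and Tnip1 and Nfkbie lost their calls in most of these runs. Besides the NF-kB-linked genes Tnfaip3 (0.81), Nfkbia (0.77) and Nfkbiz (0.80), the RNase gene Zc3h12a rose by 0.60 (SE 0.05; limma adjusted p = 0.0018). Ptpn6, encoding the phosphatase SHP-1, fell by 0.47 on the log2 scale (adjusted p = 0.0074). Sigirr, an inhibitory receptor of the TIR family, had a log2 change of -0.41 (limma adjusted p = 0.036) and was not called in any of the 6 runs with an array left out (0.054 to 0.12), which leaves 1 gene called lower there. Irak3, Tollip and Inpp5d did not pass.

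Genes induced by MyD88 and NF-kB showed more rises than those induced by TRIF and interferon regulatory factors. This difference between the lists was not tested. Of 18 tested in the first list, 11 rose, 3 fell and 4 did not pass, with a median log2 change of 0.63. With no filter on dim clusters the median was 0.41 over 23 genes. With 1 array left out 9 to 10 were called higher, and Tnf, Cd83 and Ier3 each lost the call in some of these runs. Cxcl2 (2.14), Ptgs2 (1.82) and Acod1 (1.32), which makes the metabolite itaconate, were among those that rose. Acod1 was at 5.76, 5.81 and 5.85 in the knockout, against 4.55, 4.43 and 4.47 in wild type (limma adjusted p = 2.2e-04). Il1a, counted among the rises here and over all lists, averaged 4.59 in knockout and 3.71 in wild type, below the limit of 4.09. It passed the filter only through its knockout arrays, so its rise adds no support to these counts. Ccl3 had a log2 change of -1.51, and Il6, Il12b, Cxcl1, Nos2 and Cd40 were too dim to test. Of 14 tested in the second list, 1 rose, 1 fell and 12 did not pass, with a median of -0.15. Cxcl10 rose by 0.59 (limma adjusted p = 0.017) and lost the call without knockout array 1 (0.056) or wild-type array 1 (0.064) or 2 (0.070). Usp18, which curbs interferon receptor signalling, was at 5.92, 5.90 and 5.95 in the knockout, against 7.08, 6.87 and 6.99 in wild type. This is a fall of 1.06 on the log2 scale (SE 0.07; limma adjusted p = 8.5e-04).

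**Figure D4:**
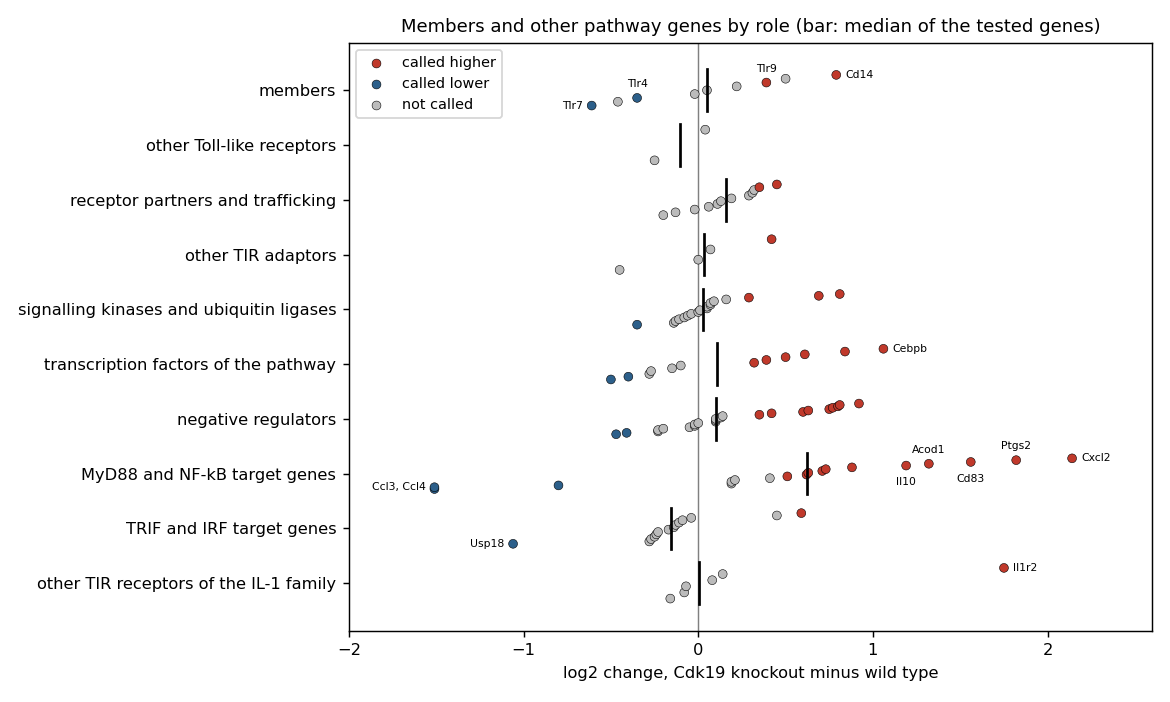
Log2 change, knockout minus wild type, of the 9 tested members and of the other pathway genes by role. Each point is the brightest cluster of a gene, colour marks the limma call, and the black bar is the median of the list, which is 0.05 for the members, 0.63 for MyD88 and NF-kB target genes and -0.15 for TRIF and IRF target genes.

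Toll-like receptors and Cd14 are also abundant in mature blood cells, so markers of these cells were read beside them. For comparison, 4.70% of the brightest clusters of protein-coding genes were called higher and 5.93% lower. Of 13 monocyte and macrophage markers tested 1 rose, the integrin gene Itgam by 0.42 (limma adjusted p = 0.015), and 0 fell, while Csf1r, Lyz2 and Ccr2 did not pass. Itgam was no longer called once wild-type array 2 or 3 was removed. The summed linear level of these markers was 8483 to 11613 in knockout arrays and 9173 to 10573 in wild-type arrays, which overlap. Adgre1 and Fcgr1, defining markers of macrophages and monocytes, were at 4.26 and 4.24 in knockout and 4.21 and 4.16 in wild type, near the limit for testing. Others of this list were bright, among them Lyz2 at 11.36 in knockout and 11.37 in wild type and Cd68 at 10.03 and 9.96. Of 12 neutrophil markers tested 1 rose, Prtn3 by 0.43 (limma adjusted p = 0.045), and 0 fell. That call was lost without any wild-type array or without knockout array 1 or 3, and Mmp8, Mmp9 and Cebpe were below the limit. Mpo and Elane of the same list were bright, at 16.87 and 10.63 in knockout and 16.93 and 10.53 in wild type. The part of monocytes, macrophages and neutrophils in the rise of Cd14 was not tested.

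B cell markers were read beside Tlr7, Tlr9 and Tlr4, with the same shares over protein-coding genes (4.70% higher, 5.93% lower). Of 7 tested, 4 fell (Cd79a, Ebf1, Igll1 and Ighm), 0 rose, and Cd79b, Pax5 and Vpreb1 did not pass. Igll1 averaged 3.93 in knockout, below the limit of 4.09, and 4.39 in wild type. It passed the filter only through its wild-type arrays, so its fall adds no support to this count. The median log2 change of this list depended on the filter: it was -0.46 over these 7 genes, -0.09 over 9 genes with no filter on dim clusters, and -0.72 over the 4 left without the dimmest 60%. Their summed linear level was 1901 to 2227 in knockout arrays and 3750 to 3899 in wild-type arrays. This sum mostly follows Ighm, at 10.78 in knockout and 11.76 in wild type. The next brightest gene, Cd79b, was at 7.31 and 7.40, so the sum does not describe the list as a whole. Ms4a1 and Cd22, which mark mature B cells, were below the limit for testing. Of 7 dendritic cell markers tested, Siglech of plasmacytoid cells among them, none was called, and Xcr1 and Zbtb46 were below the limit. The summed level of the dendritic cell list was 3070 to 4576 in knockout arrays and 3122 to 3816 in wild-type arrays. It mostly follows Bst2, at 11.76 in knockout and 11.63 in wild type, while the next brightest gene, Itgax, was at 5.72 and 5.81. Of 6 megakaryocyte markers tested, 4 rose and 0 fell, with a median log2 change of 0.56. The part of these cells in the changes of Tlr7, Tlr9 and Tlr4 was not tested.

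Genes whose profile over the 6 arrays lay nearest to a member's were found among 12742 tested genes, by the root mean square difference of mean-centred log2 values. Nearest to Cd14 were the chemokine gene Cx3cl1 (0.058), Ifitm1 (0.062), Lcn2 (0.064), whose product binds bacterial iron carriers, and Ccrl2 (0.065), an atypical chemokine receptor. Nearest to Tlr7 were Cdkn1b (0.024), encoding the cell cycle inhibitor p27, Adgrg3 (0.038), Calhm2 (0.039) and Pisd (0.039). Cdkn1b was at 8.79, 8.48 and 8.87 in the knockout, against 9.35, 9.34 and 9.23 in wild type, so it shared with Tlr7 the low value on knockout array 2. With 6 arrays in 2 genotypes, these likenesses are mainly a shared size of the genotype difference and are given as a description.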

How the data were processed

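Expression was measured on 6 arrays, 3 of Cdk19 knockout and 3 of wild-type HSCs. The authors deposited 1 table of log2 values for 65956 transcript clusters. MAS5 is the only tool in the submitters' processing notes, which state neither its version nor its role. The values run from 2.04 to 19.93, so base 2 was inferred for the logarithm, and fold sizes depend on it. How background, probe summary and normalization were handled is not stated in the sources used here. Since the probes' signals, detection calls and scan batches were not used here, precision is limited by the number of arrays. The labels call the arrays biological replicates without naming animals, so p-values measure the spread between these arrays.

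The members and lists were chosen with earlier results of these data known. Platform symbols were updated through gene IDs for 827 clusters, and a gene was read from its brightest cluster by mean over 6 arrays. The 40% dimmest clusters were left out (limit 4.09). limma 3.58.1 in R 4.3.3 fitted genotype alone, with empirical Bayes moderation and an intensity trend, giving two-sided p-values that were adjusted by Benjamini-Hochberg across 39543 clusters. The pipeline was tested on simulated data. Intervals are 95% intervals of the moderated estimate. Summed levels add 2 to the power of each value. Alternatives changed normalization, filter, variance model, replicate block, cluster choice and the arrays kept. Named genes were the members, and in each list the called genes with the smallest p (up to 4) and those with the highest and lowest statistic. Other genes named (among them Relb, Irf1, Irf8, Sigirr and the markers) were chosen after their values were seen. Tables and plots used Python 3.11.15, pandas 2.3.3 and matplotlib 3.10.9.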

Additional observations from a re-analysis of the deposited data

How the results depend on the processing

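Cd14 kept its call under all 14 alternatives (log2 change 0.73 to 0.86), and Tlr3, Tlr6, Myd88 and Ly96 stayed without one in each that could be run. With 1 array left out, log2 changes were 0.43 to 0.62 for Tlr2, -0.39 to -0.30 for Tlr4, -0.67 to -0.51 for Tlr7 and 0.35 to 0.47 for Tlr9, and 1 to 2 members were called higher and 0 to 1 lower. In those runs 26 to 32 of the other pathway genes were called higher and 5 to 7 lower, against 34 and 9 with all arrays. The whole table had 540 to 970 clusters higher and 761 to 1507 lower, against 1172 and 1914. Fewer arrays were fitted there. Tlr2 passed with a common median (0.47, adjusted p = 0.042) and with the dimmest 60% left out (0.50, adjusted p = 0.037). With no filter, Tlr4 (-0.35, adjusted p = 0.066) and Tlr9 (0.39, adjusted p = 0.065) lost their calls, leaving 1 member higher and 1 lower, with more clusters tested. A common median took the call of Tlr9 (0.36, adjusted p = 0.073). Leaving out the dimmest 60% moved the members' median to 0.22, as Tlr3 and Tlr6 were dropped, and with 1 array left out it was -0.03 to 0.16. With the replicate block, Tlr4 (-0.35, adjusted p = 0.12), Tlr7 (-0.61, adjusted p = 0.053) and Tlr9 (0.39, adjusted p = 0.12) lost their calls, so 1 member was higher and 0 lower, and the whole table had 630 clusters higher and 1083 lower. Deviations of same-numbered arrays from their group means correlated at -0.14, -0.10 and 0.02, and no array correlated best with its own number. With 3 arrays per genotype, these correlations cannot decide whether the replicate numbers pair the arrays. The cause of the other changes was not tested. Pseudocounts were not run because the values are on a log scale.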
